A study of Atriplex prostrata and Atriplex rosea and Atriplex prostrata x Atriplex rosea with 87 samples.

Results

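The serine carboxypeptidase family was followed through leaf growth in the C4 plant Atriplex rosea and the C3 plant Atriplex prostrata. Its members are the rows of the deposited count table whose description holds the words serine carboxypeptidase, and 33 of the 21976 loci in the table met that rule. Of these, 29 are numbered serine carboxypeptidase-like (SCPL) proteins and 4 are members of the S28 family. The members were chosen by description text and no measured value entered that choice, but the family was proposed with earlier results of these data known, so its counts and tests are given as a description of the family and not as independent support for a difference. A filter on low counts passed 32 members. The member that did not pass, AT3G28680 of the S28 family, had 1 count over the rosea libraries and 32 over the prostrata libraries.

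SCPL proteins share the fold and the catalytic serine of carboxypeptidases, enzymes that cut amino acids from the end of a peptide chain. In Arabidopsis some of them have become acyltransferases, which move an acyl group from a glucose ester to another molecule. SNG2, which is SCPL19, makes sinapoylcholine in this way, and its relative SNG1 makes sinapoylmalate, a leaf compound that absorbs ultraviolet light. SNG1 is not among the members, and neither it nor SCPL9, SCPL10, SCPL13 or BRS1 of the same family was among the loci tested here. The numbered proteins are described here in 3 classes by number, namely 1 to 19, the class that holds the acyltransferases (9 members here), 20 to 46 (16 members) and 47 to 51 (4 members). S28 proteins are another peptidase family that carries the same words in its name, related to enzymes that cut after proline.

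The leaf plastochron index, which orders leaves by development and is below 0 in the youngest ones, served to match stages of the species. Each species had 8 groups of 3 libraries. Whole leaves were taken at index -1.3 (1 mm), -0.7 (5 mm) and -0.35 (7.5 mm, with leaf 9 and leaf 10 as separate groups). Bottom and top parts were taken at index 0.3, which were 11 mm leaves in rosea and 15 mm leaves in prostrata, and at index 0.8, which were 13 mm leaves in rosea and 18 mm leaves in prostrata. The labels name no transgene and no treatment for any group. Growth chambers were kept at 27 °C during the 17 h day (light of 500 µmol m-2 s-1) and at 22 °C during the night. The F1 hybrid of the species and leaves at index 1.5 were not analysed here.

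Library totals ran from 7647689 to 15360702 counts in rosea and from 8028511 to 12387428 counts in prostrata. The table assigns the reads of each species to Arabidopsis thaliana loci, so a difference between the species in transcript level and one in how well reads match the Arabidopsis sequence cannot be told apart. Reads of 1 Atriplex gene may also be divided over several Arabidopsis paralogs, and the close relatives among the members are uncertain as single genes. Levels are in CPM, counts relative to a library total that was scaled by TMM (trimmed mean of M-values), and are not set against each other between genes, since gene lengths are not in the table. Among all pairs of libraries, the bottom and top parts of 15 mm prostrata leaves with replicate number 1 had the closest counts, at a chi-square of 1.14 per degree of freedom against a median of 15.2 between replicates of a group. The 3 libraries of 1 mm prostrata leaves were nearly as close to each other, at 1.2, 1.93 and 2.18. Leaf 9 columns and leaf 10 replicates of the same number were close too, at 1.8, 2.18 and 3.1 in prostrata. In rosea those with number 2 stood at 2.84. The model treats leaf 9 and leaf 10 as separate libraries, and whether they are paired was not tested. Green leaf markers were abundant, with RBCS1A, the small subunit of Rubisco, at 1865 to 18032 CPM in rosea and 1541 to 74260 CPM in prostrata. Of the 3 tested flower markers, AG stood at 6.46 to 14.1 CPM in rosea and 4.77 to 13.3 CPM in prostrata (not called between the species). PI stood at up to 0.344 CPM in rosea and up to 3.4 CPM in prostrata (called lower in rosea). It passed the filter on low counts through prostrata, so that call is no independent support for a difference. AP3 stood at up to 6.51 CPM in rosea and up to 1.35 CPM in prostrata (called higher in rosea).

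To ask which members differ between the species whatever the leaf age, the 24 rosea libraries were compared with the 24 prostrata libraries in 1 model. That model took every library as separate, including the top and bottom parts and the other close libraries named above. Where such libraries are paired, the p-values between the species, and those of the later tests with leaf age, may be too small. A member is called higher or lower where edgeR's quasi-likelihood test gave an adjusted p under 0.05, with Benjamini-Hochberg adjustment over all 14779 loci tested, and the log2 fold change was 1 or more in size. Rosea was higher in 12 of the 32 members and lower in 1. Over all loci tested, 9.61% were higher in rosea and 10.3% lower. The median log2 fold change was 0.56 over the members and -0.02 over all loci. As these are bulk samples, fewer cells of a type and less RNA per cell cannot be told apart.

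The members called higher were mostly those of class 1 to 19. All 9 tested members of that class were higher in rosea, by 1.26 (SCPL18) to 3.66 (SCPL19) on the log2 scale, with a median of 1.87. In class 20 to 46 SCPL28 alone was called, out of 16, and the median was 0.03. In class 47 to 51 SCPL50 was called higher, out of 4. Among the 3 tested S28 proteins, AT2G18080 (EDA2) was called higher and AT5G22860 lower.

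SCPL19 (AT5G09640), the sinapoyltransferase SNG2, had the largest difference. Its level was lowest at 32.6, median 68.1 and highest at 131 CPM over the rosea libraries, against 3.19, 5.24 and 7.05 CPM over the prostrata libraries. The lowest rosea library was thus above the highest prostrata library. The log2 fold change was 3.66 (SE 0.08, adjusted p = 2.72e-32).

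SCPL17 (AT3G12203), which in Arabidopsis acts in the making of acylated glucosinolates, ran from 15.5 through a median of 32.4 to 56.8 CPM in rosea, against 3.03, 4.24 and 5.93 CPM in prostrata. The species did not overlap, and the log2 fold change was 2.82 (SE 0.06, adjusted p = 2.13e-32). SCPL4 (AT1G73310) ran from 14.8 through 27.7 to 50.7 CPM in rosea, against 3.42, 4.99 and 8.62 CPM in prostrata. It was again higher in every rosea library, by 2.44 on the log2 scale (SE 0.07, adjusted p = 8.55e-29).

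SCPL28 (AT2G35770), the called member of class 20 to 46, ran from 15.4 through 27.7 to 45.4 CPM in rosea, against 2.73, 4.84 and 9.56 CPM in prostrata. Its log2 fold change was 2.35 (SE 0.06, adjusted p = 4.54e-29), with no overlap between the species. SCPL11 (AT2G22970) ran from 10.7 through 19.1 to 35.3 CPM in rosea, against 1.84, 4.26 and 7.68 CPM in prostrata. The log2 fold change was 2.16 (SE 0.09, adjusted p = 1.1e-23). The lowest prostrata library, at 1.84 CPM, was a top part of a 15 mm leaf, and the species did not overlap. SCPL6 (AT1G73270) ran from 12.0 through 25.3 to 47.7 CPM in rosea, against 5.55, 7.23 and 11.2 CPM in prostrata. Its highest prostrata library was just below its lowest rosea library, and the log2 fold change was 1.87 (SE 0.07, adjusted p = 8.27e-25).

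The other called members had smaller differences. SCPL7 was higher by 1.83, SCPL12 by 1.74, SCPL50 by 1.46, SCPL1 by 1.35, SCPL18 by 1.26 and AT2G18080 by 1.02 on the log2 scale. In 9 members, namely SCPL4, SCPL6, SCPL7, SCPL11, SCPL12, SCPL17, SCPL19, SCPL28 and AT2G18080, every rosea library was above every prostrata library, which held for 4.05% of all loci tested. No member had every rosea library below every prostrata library, against 4.84% of all loci. The difference of AT2G18080 was 0.87 with scaling by library totals and 1.00, just under the threshold, without the closest pair of 15 mm prostrata libraries.

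AT5G22860, the member called lower in rosea, was rare in both species. It had 75 counts over the rosea libraries, at 0 to 0.79 CPM, and 320 over the prostrata libraries, at 0.0845 to 7.65 CPM. At these levels it passed the filter on low counts through prostrata, the species where it is high. Its calls of lower in rosea, here and at single stages, are thus no independent support for a difference. The highest values were those of the closest pair of libraries, at 7.65 CPM in the bottom and 7.52 CPM in the top part of 15 mm prostrata leaves with replicate number 1, while the other 15 mm prostrata libraries ran from 1.25 to 1.65 CPM. The log2 fold change was -1.80 (SE 0.35, adjusted p = 1.53e-05), and -1.48 without that pair.

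**Figure D1:**
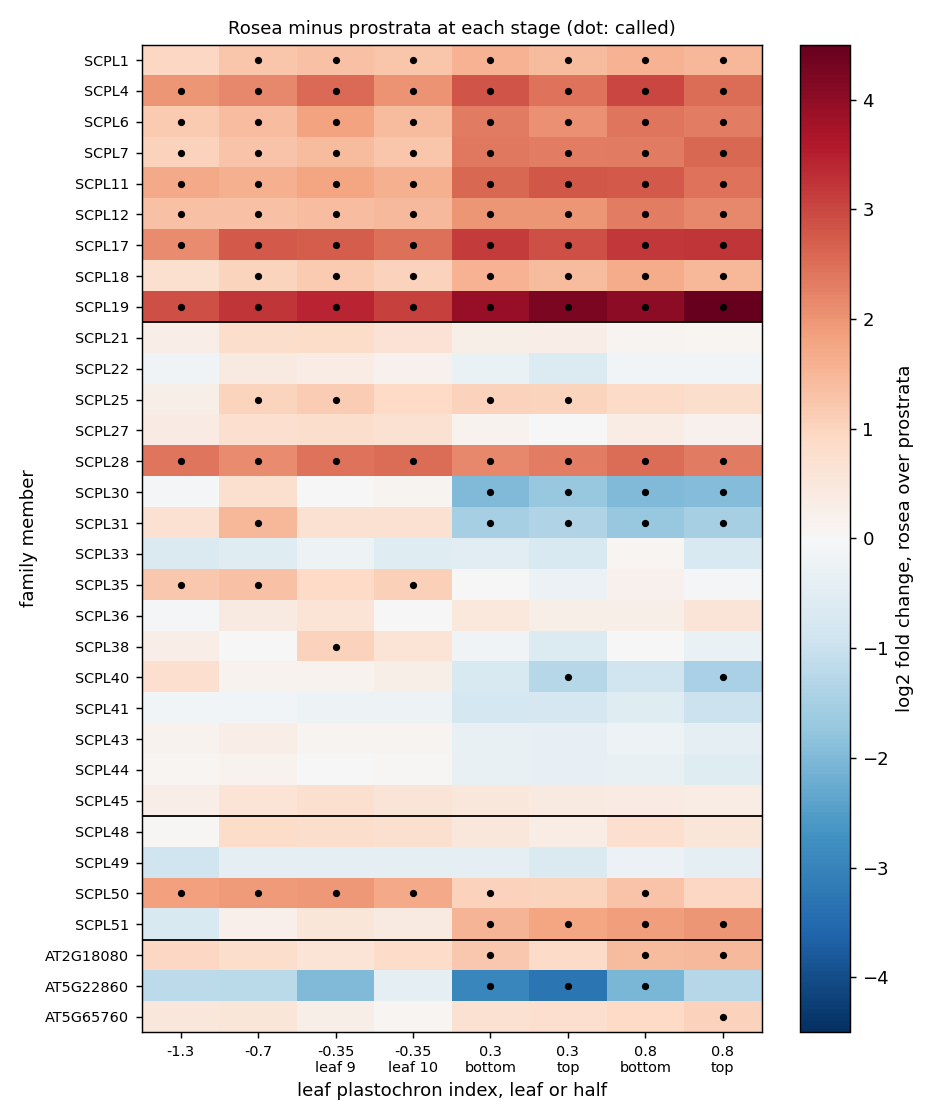
Log2 fold change of rosea over prostrata for the 32 tested members (rows, with lines between the classes 1 to 19, 20 to 46, 47 to 51 and S28) at each of 8 matched stages (columns, by leaf plastochron index). Red is higher in rosea, blue is lower in rosea and a dot marks a call; the top 9 rows and SCPL28 are red throughout, while SCPL30 and SCPL31 are blue from index 0.3 on.

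The species were next compared at each stage. In 1 mm leaves 10 members were higher in rosea and 0 lower, against 8.49% and 7.9% of all loci. The counts were 14 higher and 0 lower in 5 mm leaves (10.4% and 9.82% of all loci), 13 and 0 in leaf 9 at 7.5 mm (11% and 10.6%), and 12 and 0 in leaf 10 at 7.5 mm (9.57% and 10.1%). For these counts of 0 by edgeR, DESeq2 also called 0 members lower, and 3, 2, 1 and 2 members were lower at an unadjusted p under 0.05 in that order of stages. From index 0.3 on, members lower in rosea were called. They were 3 in the bottom and 4 in the top part at index 0.3, beside 14 and 12 higher. All loci stood there at 13.2% lower and 10.3% higher in the bottom part, and at 11.7% lower and 10.3% higher in the top part. At index 0.8, 13 members were higher and 3 lower in the bottom part (11.9% and 12.9% of all loci), and 13 higher and 3 lower in the top part (11.7% and 13.7%).

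At all 8 stages, 8 members were called higher in rosea, where 3.68% of all loci were. They were SCPL4, SCPL6, SCPL7, SCPL11, SCPL12, SCPL17, SCPL19 and SCPL28. SCPL1 and SCPL18 were called at 7 stages, all but 1 mm leaves, and SCPL50 at 6. With library totals, SCPL7 at 1 mm stood at 0.99 and SCPL18 was under the threshold in 5 mm and 7.5 mm leaves, at 0.85 to 0.98. SCPL7 lost its call in 1 mm leaves without prostrata replicate 1 (0.92) and in leaf 10 without rosea replicate 2 (0.95). SCPL18 lost it in 5 mm leaves without prostrata replicate 1 (1.00) or rosea replicate 2 (0.98), and in leaf 10 without replicate 2 of prostrata (0.98) or rosea (0.82). SCPL50 lost it in the bottom part at index 0.3 without prostrata replicate 3 (1.00) and with library totals (0.97).

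The difference of SCPL19 was 2.89, 3.2, 3.44, 3.08, 3.92, 4.22, 4.03 and 4.47 on the log2 scale over the stages from 1 mm leaves to the top part at index 0.8. Over the same stages its group means were 33.6, 43.2, 51.3, 44.6, 91.9, 103, 93.6 and 120 CPM in rosea, against 4.5, 4.7, 4.7, 5.23, 6.12, 5.47, 5.7 and 5.27 CPM in prostrata. The rosea level was higher in the parts of older leaves than in whole young leaves, while the prostrata means all lay between 4.5 and 6.12 CPM.

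The members lower in rosea at the older stages were SCPL30 and SCPL31, called in all 4 parts, SCPL40 in both top parts, and AT5G22860 in both parts at index 0.3 and in the bottom part at index 0.8. AT5G22860 lost its call at index 0.3 bottom (-1.57, adjusted p = 0.0911) without replicate 1 of that prostrata group, against -2.93 with it. Without the closest pair of libraries its values at index 0.3 were -1.57 in the bottom and -2.13 in the top part, against -3.29 with the pair in the top part. At index 0.8 bottom it lost it without replicate 1 of the prostrata group (-1.23, adjusted p = 0.252) or replicate 2 of the rosea group (-1.74, adjusted p = 0.086).

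**Figure D2:**
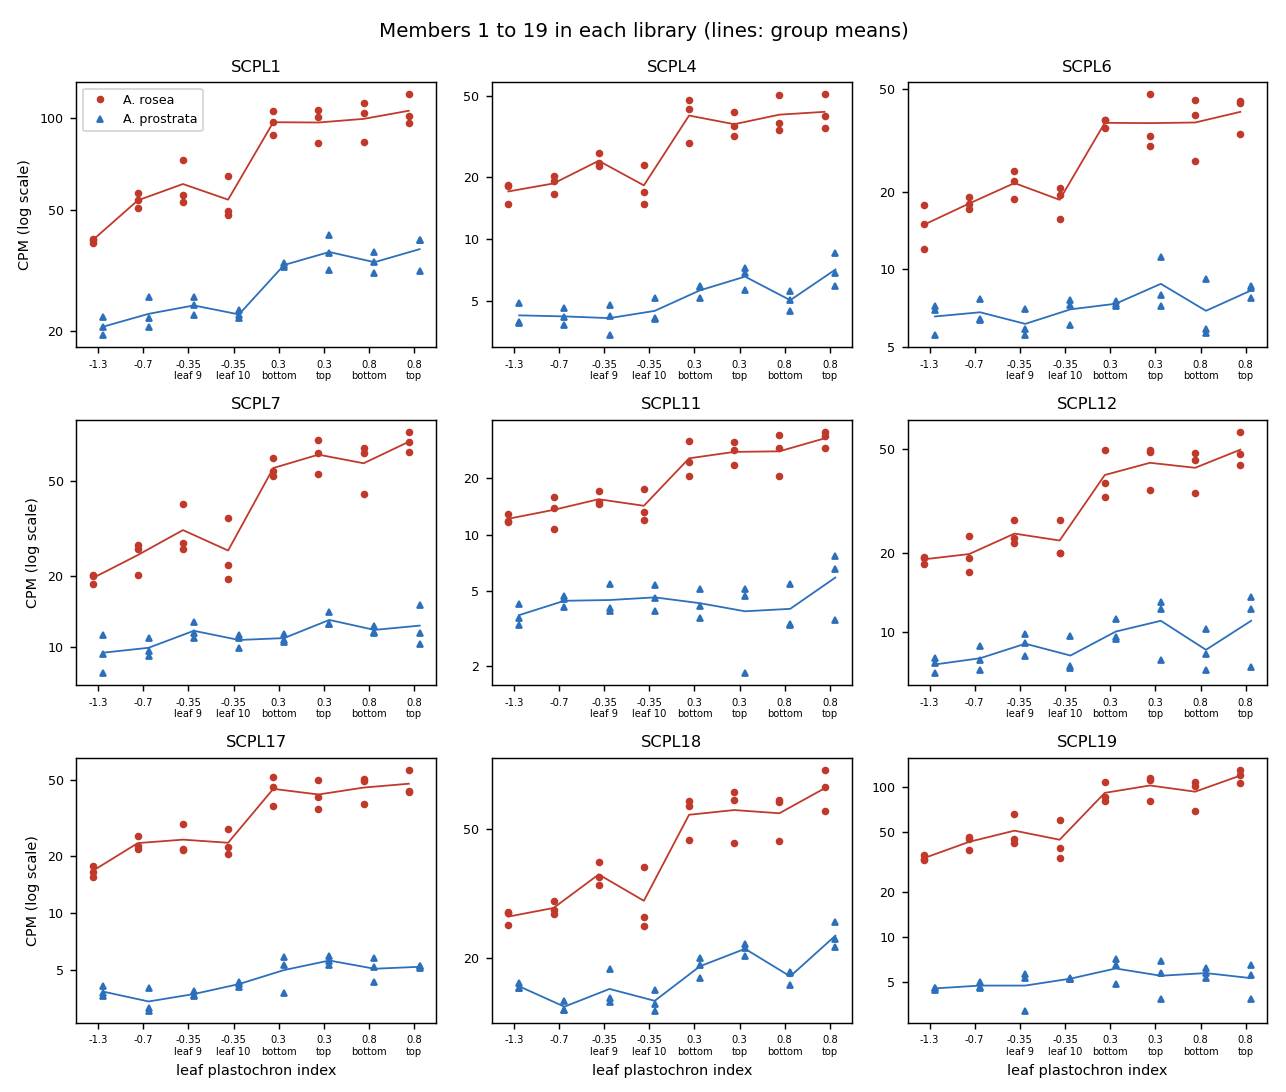
Level in CPM (log scale) of the 9 members of class 1 to 19 in every library, by leaf plastochron index and leaf part, with rosea as red circles, prostrata as blue triangles and lines through the group means. In each panel the rosea libraries of a stage lie above the prostrata libraries of that stage, and SCPL19 reaches 131 CPM in rosea against 7.05 CPM in prostrata.

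The change with leaf age was tested in each species as the mean of both parts at index 0.8 over 1 mm leaves. In rosea 19 members rose and 1 fell, where 15% of all loci rose and 10.3% fell. In prostrata 11 members rose and 1 fell, where 15.2% of all loci rose and 8.28% fell. The median log2 change was 1.24 over the members in rosea, with -0.07 over all loci, and 0.53 in prostrata, with -0.03 over all loci. These values are relative to the TMM scale. With library totals the median of all loci moved to -0.75 in rosea and -0.58 in prostrata, and 2 members rose in rosea and 5 in prostrata. Leaving out any 1 mm prostrata library, 10 or 11 members rose in prostrata. As those 3 libraries lay so close to each other, these fits cannot show how far another 1 mm baseline would differ. Of all loci called in the change with age, 59.3% rose in rosea and 64.7% in prostrata on the TMM scale, and 17% and 23% with library totals. Between the species over the stages, 48.4% of the called loci were higher in rosea on the TMM scale and 37.2% with library totals, where the median of all loci was -0.17. At the single stages these shares were 43.8 to 51.8% on the TMM scale and 34 to 47.6% with library totals.

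All 9 members of class 1 to 19 rose in rosea, with log2 changes of 1.19 to 1.76, and each had all 6 libraries at index 0.8 above all 3 libraries of 1 mm leaves, as did 24.6% of all loci. In prostrata 0 of the 9 were called by edgeR or DESeq2 and 6 had an unadjusted p under 0.05, with log2 changes of 0.21 to 0.77, and SCPL1 and SCPL17 alone had no overlap between index 0.8 and 1 mm, where 24.9% of all loci were higher at index 0.8 without overlap. With library totals the rosea changes stayed above 0 in all 9 members, at 0.51 to 1.07, with 1 called, while the prostrata changes ran from -0.34 to 0.23 and were below 0 in 8 of the 9.

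The summed level of the 9 loci shows the same course. In rosea it was 199 ± 6.11 CPM in 1 mm leaves, 243 ± 16.1 in 5 mm leaves, 289 ± 46.7 in leaf 9 and 251 ± 55.2 in leaf 10 at 7.5 mm. It then stood at 489 ± 64.0 and 509 ± 78.6 CPM in the bottom and top parts at index 0.3, and at 502 ± 93.7 and 579 ± 56.5 CPM in those at index 0.8 (SD, n = 3 each). In prostrata the same groups had 76.9 ± 3.38, 78.3 ± 1.93, 84.2 ± 5.56, 81.7 ± 4.13, 101 ± 3.05, 112 ± 13.6, 98.3 ± 5.90 and 116 ± 16.4 CPM. At every stage the lowest rosea library was above the highest prostrata library.

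Within this class the counts at the loci did not keep the same proportions in both species. SCPL19 took 16 to 22% of the summed counts of the 9 loci in the rosea libraries (median 18.5%), against 3.52 to 7.04% in the prostrata libraries (median 5.83%). SCPL17 took 7.32 to 11.3% in rosea against 3.64 to 5.94% in prostrata. SCPL1 and SCPL18 had the smaller share in rosea, at 17.1 to 22.8% and 10.8 to 13.9%, against 25.9 to 35.6% and 16.7 to 22.3% in prostrata. Each of these 4 pairs of ranges is free of overlap over 24 libraries a species. Reads of a single Atriplex gene may be divided over several of these loci. The shares thus cannot tell a difference in transcript level from one in how the reads of each species match the loci.

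**Figure D3:**
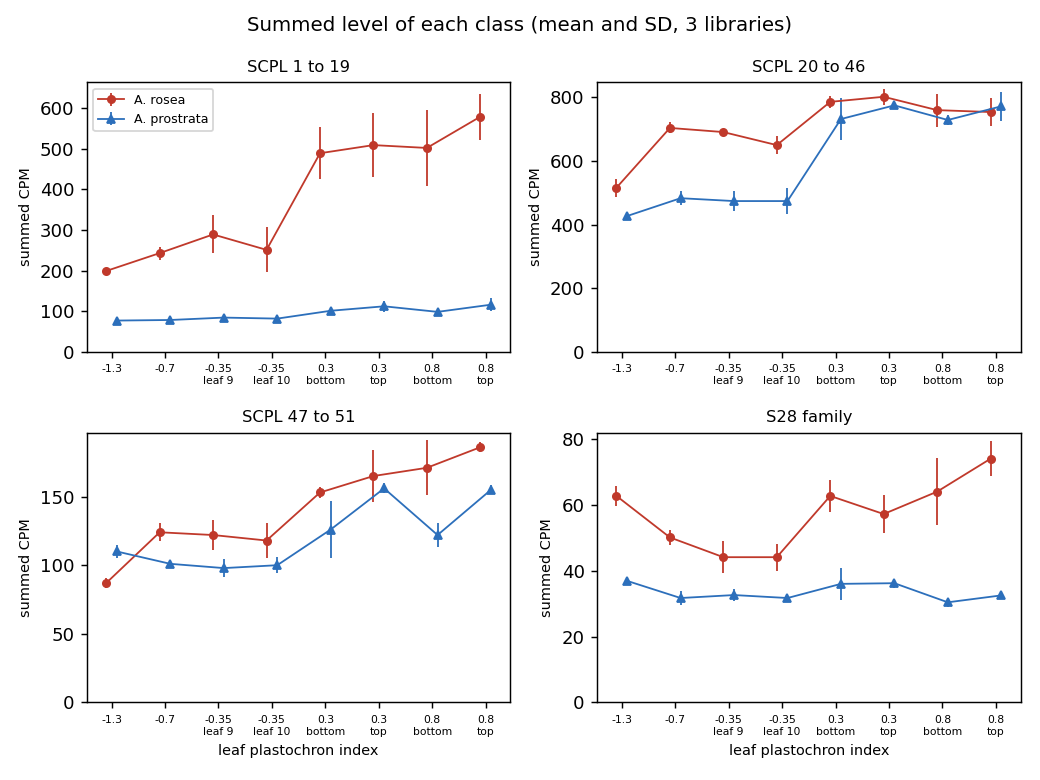
Summed level in CPM of the members of each class, as the mean of 3 libraries with SD bars, by leaf plastochron index and leaf part, with rosea in red and prostrata in blue. Class 1 to 19 reaches 579 CPM in rosea and 116 CPM in prostrata, while the summed level of class 20 to 46 differs less from index 0.3 on.

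In class 20 to 46, 8 of the 16 members rose in both species, namely SCPL21, SCPL22, SCPL27, SCPL28, SCPL30, SCPL31, SCPL33 and SCPL35. No member outside that class rose in both, and 9.55% of all loci did. These 8 are 42.1% of the members that rose in rosea and 72.7% of those that rose in prostrata. Over all loci 1411 rose in both, out of 2211 that rose in rosea and 2243 that rose in prostrata. SCPL21 stood at 109 to 139 CPM at index 0.8, against 38.8, 42.4 and 48.1 CPM in 1 mm leaves of rosea, a log2 change of 1.49 (SE 0.13, adjusted p = 3.68e-12). In prostrata it stood at 93.7 to 147 CPM at index 0.8, against 34.2, 35.2 and 35.7 CPM in 1 mm leaves, a log2 change of 1.69 (SE 0.13, adjusted p = 2.35e-13). With library totals, SCPL33 alone of the 8 was called in rosea along with SCPL7 of the first class, and SCPL21, SCPL30, SCPL31 and SCPL35 of the 8 kept their call in prostrata.

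Members that rose in rosea and not in prostrata were the 9 of class 1 to 19, SCPL48 and SCPL51, and those that rose in prostrata and not in rosea were SCPL38, SCPL50 and AT5G22860. SCPL48, in the class of carboxypeptidases 47 to 51, had a log2 change of 1.46 in rosea and 0.85 in prostrata. The log2 change of SCPL50 was 0.90 in rosea and 1.64 in prostrata, and that of SCPL38 was 0.99 in rosea (1.03 and called with DESeq2) and 1.46 in prostrata. AT5G22860 stood at 1.23 in rosea (SE 0.97) and 1.71 in prostrata (SE 0.69, adjusted p = 0.0298), a call lost without prostrata 1 mm replicate 2 (1.25) or replicate 1 of the 18 mm bottom part (1.33). As AT5G22860 passed the filter on low counts through the prostrata libraries where it is high, that rise is no independent support for a change. Whether such a pair differs was tested by the difference of the age changes, which was 0.61 for SCPL48, -0.75 for SCPL50, -0.47 for SCPL38 and -0.48 for AT5G22860, none past the fold threshold. Called neither between the species over the stages nor in either change with age were 8 of the 32 members, against 56.5% of all loci.

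**Figure D4:**
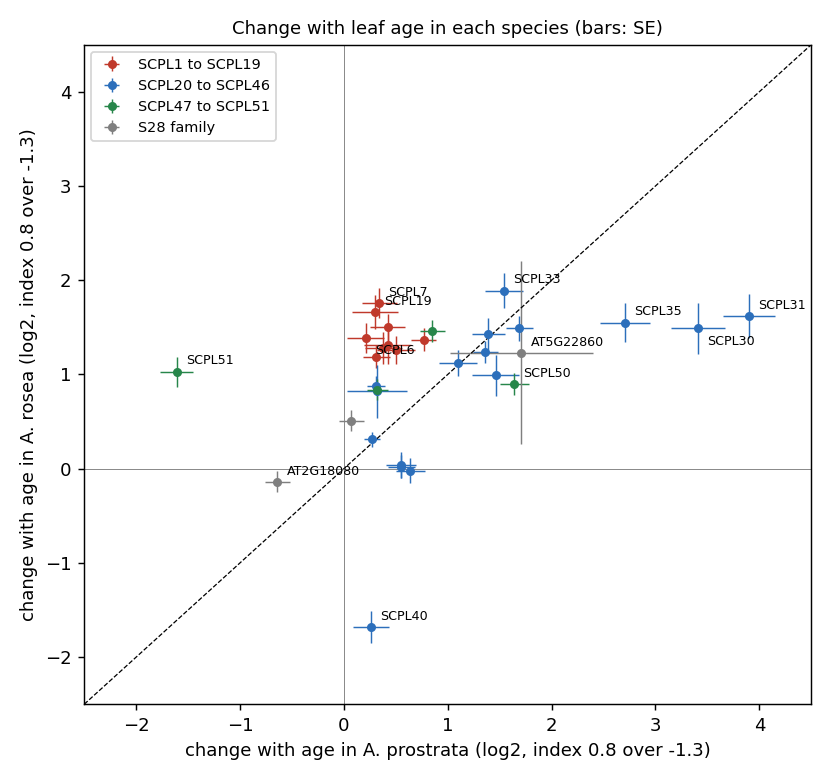
Log2 change with age (index 0.8 over index -1.3) of the 32 tested members in rosea (vertical axis) and prostrata (horizontal axis), coloured by class, with bars of 1 SE and a dashed line of equal change. Members of class 1 to 19 lie above the line, SCPL30, SCPL31 and SCPL35 below it at the right, SCPL51 at the upper left and SCPL40 at the bottom.

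The difference of the age changes, rosea minus prostrata, was called in 9 members. It was higher in rosea for 5 (4.51% of all loci) and lower for 4 (6.38% of all loci). Of all loci called in it, 41.4% were higher on the TMM scale and 28.4% with library totals. The 5 were SCPL51 (2.64), SCPL7 (1.41), SCPL19 (1.36), SCPL6 (1.18) and SCPL17 (1.08), the last at 0.94 with library totals. The 4 were SCPL31 (-2.29), SCPL40 (-1.94), SCPL30 (-1.92) and SCPL35 (-1.16), the last at -0.93 without rosea 1 mm replicate 2. The other 5 members of class 1 to 19 had differences of 0.60 to 0.90, under the fold threshold. SCPL11 among them passed it without prostrata 18 mm bottom replicate 3 (1.04) or top replicate 3 (1.03).

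SCPL51 (AT2G27920), a member of the last numbered class, went in opposite directions. In rosea it ran from 20 through a median of 26 to 35.7 CPM at index 0.8, against 13.5, 11.8 and 13.9 CPM in 1 mm leaves. In prostrata it ran from 5.37 through 6.87 to 8.85 CPM at index 0.8, against 20.9, 21.9 and 20.8 CPM in 1 mm leaves. Neither species had overlap between the ages, and the rosea libraries lay below the prostrata libraries in 1 mm leaves and above them at index 0.8. It rose by 1.03 (SE 0.16, adjusted p = 1.3e-06) in rosea and fell by 1.61 in prostrata (SE 0.16, adjusted p = 8.11e-11), and the difference was 2.64 (SE 0.23, adjusted p = 1.14e-10). The rosea rise was 0.34 and not called with library totals, 0.96 without rosea 1 mm replicate 2 and 0.94 without replicate 2 of the 13 mm top part, while the difference of the changes was called in each of these fits.

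SCPL31 (AT1G11080) was the member with the largest rise in prostrata. It ran from 11.4 through 14.9 to 21.2 CPM at index 0.8 of rosea, against 5.05, 5.77 and 4.26 CPM in 1 mm leaves. In prostrata it ran from 20.6 through 47.1 to 68.0 CPM at index 0.8, against 2.78, 3.63 and 2.92 CPM in 1 mm leaves. The rise was 1.62 (SE 0.23, adjusted p = 1.7e-07) in rosea and 3.90 (SE 0.25, adjusted p = 1.64e-15) in prostrata, a difference of -2.29 (SE 0.33, adjusted p = 2.31e-06). The rosea means were 5.03, 15.0, 14.7, 14.0, 16.9, 16.0, 17.2 and 13.7 CPM over the stages from 1 mm leaves to the top part at index 0.8, so all stages after 1 mm lay between 13.7 and 17.2 CPM. The prostrata means were 3.11, 5.26, 9.21, 8.81, 48.0, 40.5, 56.6 and 38.3 CPM, with the high values from index 0.3 on.

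SCPL30 (AT4G15100) likewise rose in both species. It ran from 3.00 through 4.20 to 6.59 CPM at index 0.8 of rosea, against 2.11, 1.65 and 1.07 CPM in 1 mm leaves, and from 11.2 through 18.2 to 21.8 CPM at index 0.8 of prostrata, against 1.63, 1.86 and 1.46 CPM in 1 mm leaves. The ages did not overlap in either species. The difference of the changes was -1.92 (SE 0.38, adjusted p = 0.000234). SCPL30 held 18.7 to 30.9% of the summed counts of SCPL30 and SCPL31 in rosea and 23 to 42% in prostrata, so these shares overlapped between the species.

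SCPL40 (AT3G63470) was the member that fell with age in rosea. It ran from 3.65 through 7.80 to 13.7 CPM at index 0.8 of rosea, against 26.8, 25.8 and 26.0 CPM in 1 mm leaves. In prostrata it ran from 13.7 through 18.2 to 23.9 CPM at index 0.8, against 15.1, 17.3 and 14.1 CPM in 1 mm leaves. The ages were far apart in rosea and overlapped in prostrata. The change was -1.68 (SE 0.17, adjusted p = 4.13e-11) in rosea and 0.26 (SE 0.17, adjusted p = 0.185) in prostrata, a difference of -1.94 (SE 0.24, adjusted p = 1.41e-07).

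**Figure D5:**
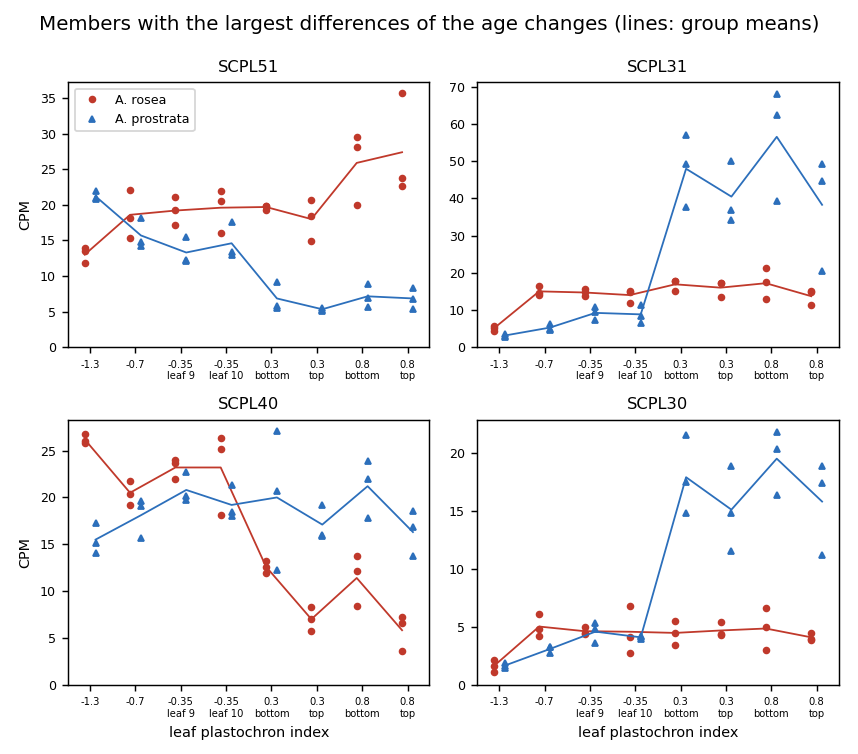
Level in CPM of SCPL51, SCPL31, SCPL40 and SCPL30 in every library, by leaf plastochron index and leaf part, with rosea as red circles, prostrata as blue triangles and lines through the group means. SCPL51 crosses between the species, SCPL31 and SCPL30 reach 68.0 and 21.8 CPM in prostrata from index 0.3 on, and SCPL40 is as low as 3.65 CPM in rosea.

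The age change was split at 7.5 mm leaves. In the early step, 7.5 mm over 1 mm leaves, 2 members rose in rosea (SCPL30 and SCPL31) and 0 fell, against 5.25% and 3.53% of all loci. In prostrata 3 rose (SCPL30, SCPL31 and SCPL35) and 0 fell, against 2.56% and 1.68% of all loci. Beside these 0 by edgeR, 2 members in each species were lower at an unadjusted p under 0.05, and DESeq2 called 0. SCPL35 had an early change of 1.00 in rosea, just under the threshold, and with it DESeq2 called 3 members. The leaf 9 libraries carry only the numbers of their table columns, which are not those of the labelled replicates. Without column 1 of leaf 9 or replicate 1 of leaf 10 of rosea, SCPL21, SCPL33 and SCPL35 also passed, which made 5, and without column 3 of leaf 9 or replicate 3 of leaf 10, 4 members passed. Among the loci called in the early step, 59.8% rose in rosea and 60.4% in prostrata on the TMM scale, and 26% and 41.3% with library totals.

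In the late step, index 0.8 over 7.5 mm leaves, 3 members rose in rosea and 1 fell, against 8.21% and 5.29% of all loci. The 3 were SCPL7 (1.23), SCPL19 (1.15) and SCPL11 (1.02), and SCPL40 fell by 1.51 on the log2 scale. The 9 members of class 1 to 19 had late changes of 0.84 to 1.23 in rosea, so the threshold lay within their range. SCPL11 lost its call in 6 of the 12 fits that left out 1 library, at 0.93 to 1.00, namely those without leaf 9 column 1, leaf 10 replicates 1 and 3, 13 mm bottom replicates 1 and 3 and 13 mm top replicate 1. With library totals the 3 stood at 0.62 to 0.83 and were not called. The number of members that rose was 9 without leaf 10 replicate 2, 7 without 13 mm bottom replicate 2, and 6 without leaf 9 column 2 or 13 mm top replicate 2. Without all leaf 9 libraries, so over leaf 10 alone, it was 9, with SCPL4, SCPL6, SCPL12, SCPL17, SCPL18 and SCPL28 past the threshold as well. In prostrata 8 members rose in the late step and 1 fell, against 10.3% and 5.25% of all loci. With library totals 4 rose, and SCPL21, SCPL22, SCPL38 and SCPL50 were under the threshold at 0.71 to 0.91. On the TMM scale SCPL31 rose by 2.37, SCPL30 by 2.02, SCPL35 by 1.49 and SCPL50 by 1.31. AT5G22860, which passed the filter on low counts through the prostrata libraries where it is high, is also among the 8. Its call was lost without replicate 1 of the 18 mm bottom part (1.34, adjusted p = 0.0509). SCPL51 fell by 1.00, and that call was lost with DESeq2 (-0.99) and in 6 of the 12 fits that left out 1 library (-0.97 to -0.89), namely those without column 1 of leaf 9, replicate 1 of leaf 10, replicate 1 or 3 of the 18 mm bottom part and replicate 2 or 3 of the 18 mm top part. Among the loci called in the late step, 60.8% rose in rosea and 66.3% in prostrata on the TMM scale, and 25.5% and 27.6% with library totals.

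No member was called between the top and bottom parts of leaves in either species by edgeR, with indices 0.3 and 0.8 averaged. Few loci were, at 0.149% higher and 0.433% lower in the top part in rosea, and 0.433% higher and 0.785% lower in prostrata. In prostrata these were 64 loci higher and 116 lower, and 148 and 231 without the closest pair of libraries. With only the groups compared in the fit, 1 locus was higher and 1 lower in prostrata, and 17 were lower in rosea, against 22 higher and 64 lower there with all groups. At an unadjusted p under 0.05, 4 members were higher and 2 lower in the top part in rosea and 11 higher and 2 lower in prostrata, and DESeq2 called 0 in each. Of the loci called, 25.6% were higher in the top part in rosea and 35.6% in prostrata on the TMM scale, and 11.9% and 18.6% with library totals. The largest difference was that of SCPL40 in rosea, at -0.90 (SE 0.15, adjusted p = 0.000718), which was -1.03 and called with library totals. Its 3 libraries at index 0.3 had 5.70, 7.00 and 8.30 CPM in the top part, against 13.2, 11.9 and 12.6 CPM in the bottom part, without overlap.

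Genes of related pathways were read in the same fit, from lists chosen with earlier results known. Of 12 tested genes of sinapate ester and early phenylpropanoid synthesis, 2 were called between the species over the stages, both higher in rosea, with a median log2 fold change of 0.20. Over all loci 9.61% were higher and 10.3% lower, which also stands beside the lists of proteases and brassinosteroid genes. FAH1 (AT4G36220), the hydroxylase on the way to sinapate, ran from 30.8 through 59.1 to 93.0 CPM in rosea, against 6.24, 10.3 and 15.2 CPM in prostrata, with no overlap and a log2 difference of 2.54 (SE 0.07, adjusted p = 4.18e-29). HCT, an acyltransferase earlier in the pathway, was higher by 1.81 (SE 0.16). Other genes of the list, named after their values were seen, were called at single stages only. 4CL1 and CYP98A3 were higher in rosea in each whole leaf group, CCOAOMT1 was lower in every part from index 0.3 on, and OMT1 was lower in the top part at index 0.3. UGT84A1 and UGT84A2, glucosyltransferases that make sinapoylglucose and so the substrate of SNG2 in Arabidopsis, and named here after their values were seen, were not called between the species, at 6.58 to 17.8 and 7.35 to 14.1 CPM in rosea against 7.86 to 19.9 and 5.00 to 13.7 CPM in prostrata. With age, 1 of the 12 rose and 1 fell in rosea, where 15% of all loci rose and 10.3% fell. In prostrata 6 of them rose and 1 fell, where 15.2% of all loci rose and 8.28% fell. The difference of the age changes was called in 4, all lower and likewise named after their values were seen, namely CYP98A3 (-1.25), CCOAOMT1 (-1.21), C4H (-1.15) and UGT84A2 (-1.13), whereas the called members of class 1 to 19 were all higher. Over all loci that difference was called higher in 4.51% and lower in 6.38%.

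Of 9 tested vacuolar and lysosomal proteases of other classes, SAG12, a cysteine protease of old leaves, was called higher in rosea, by 1.92 (SE 0.11), and was the one call among them over the stages. Of 12 tested genes of brassinosteroid synthesis and signalling, BKI1, an inhibitor of the receptor BRI1, was higher by 2.73 (SE 0.20) and DET2, a steroid reductase, lower at -2.05 (SE 0.10).

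Markers of tissues moved with age too. All 3 tested green leaf markers (RBCS1A, RCA and PSAF), the phloem marker SUC2 and the xylem markers XCP1 and XCP2 rose in both species, and the meristem marker STM fell in both, to 0 CPM in the lowest libraries of each species. The median of STM was 0.173 CPM in rosea and 0.236 CPM in prostrata, with highs of 29.9 and 28.6 CPM. It passed the filter on low counts through the libraries where it is high, so its fall is no independent support for a change. Between the species over the stages, PSAF was called higher in rosea (1.00), and RBCS1A (-0.69), RCA (-0.24), SUC2 (0.82), XCP1, XCP2, STM and FDH were not called. At single stages RBCS1A was called lower in rosea in all 4 parts at indices 0.3 and 0.8 (-2.12 to -1.26) and RCA in both top parts (-1.09 to -1.02). SUC2 was called higher in leaf 9 (1.08) and in both parts at index 0.8 (1.09 to 1.32). The difference of the age changes was -2.06 for RBCS1A and -1.31 for the epidermal marker FDH. The part of these markers in the members' changes was not tested.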

How the data were processed

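The deposited table, made by the authors, holds raw read counts per library at Arabidopsis loci. CASAVA, DESeq2 and the TAIR10 build are listed per the submitters' processing notes, with no versions. Aligner and counter: not given in the sources used here. Of 60 count columns, 48 were matched to labelled samples and 12 were not used. Leaf 9 columns were matched as a group, without replicate numbers. A further 5 rows with shifted values were left out.

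The 48 libraries entered a single model of 16 group means with TMM scaling and the default count filter, tested by the quasi-likelihood F test of edgeR 4.0.16 under R 4.3.3. Each SE was taken from the F value, as the size of the log2 change over its square root. The code was tested on simulated data. The alternatives were DESeq2 1.42.0, its size factors, library totals, no filter, a replicate block, only the groups compared and leaving out libraries. Leaving out the closest pair of libraries, or leaf 9 with no block, was added after seeing the data. The replicate numbers may pair the parts of 18 mm prostrata leaves, where same-numbered libraries deviated together (correlations of 0.21, 0.35 and 0.43), though no label states it. A paired test of those parts was not run, and the tests between the species and with age also took them as separate libraries. The numbers were not taken to pair the other groups checked, and leaf 9 was not among these. Members and lists were chosen with earlier results of these data known. Values per library are given for up to 6 members called higher and 6 called lower between the species, in order of log2 fold change among those with a mean of at least 1 CPM, and up to 4 called in the difference of the age changes. AT5G22860 was added after its values were seen. The labels do not say whether replicates came from separate plants, and the p-values cover only the spread among these samples, which may be technical. The lane of each library is not known here, so lane and group cannot be told apart.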

Additional observations from a re-analysis of the deposited data

Results flagged for a closer look

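In 9 members the change with leaf age differed between the species by a test of the difference itself, rosea minus prostrata on the log2 scale. The age change ran further upward in rosea than in prostrata for SCPL51 (2.64), SCPL7 (1.41), SCPL19 (1.36), SCPL6 (1.18) and SCPL17 (1.08). It ran further upward in prostrata than in rosea for SCPL31 (-2.29), SCPL40 (-1.94), SCPL30 (-1.92) and SCPL35 (-1.16). SCPL51 rose in rosea and fell in prostrata. SCPL40 fell in rosea, and its prostrata change of 0.26 was not called. SCPL31, SCPL30 and SCPL35 rose in both.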

How the results depend on the processing

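Under scaling by library totals, the members called to rise with age were 2 in rosea and 5 in prostrata, those to fall in prostrata 2, those to rise in the late step 0 in rosea and 4 in prostrata, and 1 was lower in the top parts of rosea. The fall in the late step of prostrata was called in 0 members with DESeq2 size factors, without the filter and with the DESeq2 test. With the replicate block, fitted without the leaf 9 libraries, 9 members rose in the late step of rosea, and without those libraries and with no block it was also 9. Leaving out 1 library gave 0 to 1 fallen in the late step of prostrata, 2 to 5 risen in the early step of rosea and 2 to 9 risen in the late step of rosea. The remaining counts of members called stayed within 1.5 times, and no called member changed sign in any alternative run. Over all loci, library totals gave 1063 risen and 5188 fallen with age in rosea (2211 and 1517 with TMM), 1165 and 3909 in prostrata (2243 and 1224), 378 and 1074 in the early step of rosea (776 and 521), 589 and 1724 in its late step (1213 and 782), 837 and 2193 in the late step of prostrata (1529 and 776), and 14 higher and 104 lower in the top parts of rosea (22 and 64) and 42 and 184 in those of prostrata (64 and 116). The top parts of prostrata had 148 higher and 231 lower without the closest pair, and 1 and 1 with only the groups compared, which gave 0 and 17 in rosea. Beyond the fits with fewer libraries or groups, the cause of these shifts was not tested. Same-numbered libraries correlated in their deviations from the group means by -0.22 to 0.13 between the species (over 0.1 in 3 of 21 pairs), -0.06 to 0.25 between index 0.8 and 1 mm (3 of 12) and -0.42 to 0.13 between index 0.8 and leaf 10 (2 of 12), so the numbers were not taken to pair these groups. Between top and bottom parts it was -0.48 to 0.43 (5 of 12). The 3 pairs of 18 mm prostrata parts were all over 0.1, at 0.21, 0.35 and 0.43, so those parts may be paired. No label states that they are, and these correlations cannot tell a shared leaf from a shared step of handling. With the replicate block the count of members called between top and bottom parts stayed at 0. That block was shared by the groups of both species and was not limited to the 18 mm prostrata parts. It therefore cannot show what a paired test of those parts would give, and such a test was not run. Members with few counts, such as AT5G22860, are limited by depth.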

Other observations

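The 8 members called neither between the species over the stages nor in either change with age were SCPL25, SCPL36, SCPL41, SCPL43, SCPL44, SCPL45, SCPL49 and AT5G65760. Of these, SCPL25 was called higher in rosea at 4 single stages and AT5G65760 at 1, the top part at index 0.8. With library totals SCPL25 was under the threshold at all 4, at 0.84 to 0.97, and AT5G65760 at 0.85. Leaving out 1 library ended the call of SCPL25 in 5 mm leaves (prostrata replicate 2 or 3, rosea replicate 2; 0.95 to 0.99), in the bottom part at index 0.3 (rosea replicate 3; 0.99) and in the top part at index 0.3 (prostrata replicate 1 or 2, rosea replicate 3; 0.94 to 0.96). It ended that of AT5G65760 without prostrata replicate 1 or 3 or rosea replicate 2 (0.96 to 0.98). SCPL45 stood at 185 to 284 CPM in rosea and 131 to 197 CPM in prostrata, and its log2 change with age was 0.31 in rosea and 0.27 in prostrata. SCPL41, SCPL43 and SCPL44 had log2 changes with age of -0.02 to 0.04 in rosea and 0.55 to 0.64 in prostrata, and the differences, rosea minus prostrata, of -0.66 to -0.51 were under the fold threshold.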
